A study of Mus musculus with 17 samples.

Results

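Transcripts of 10 genes of the ovarian follicle were measured in perigonadal fat (pWAT), a visceral depot that lies next to the gonads, of 17 mice. They were 6 genes of granulosa cells (*Amh*, *Foxl2*, *Inha*, *Inhba*, *Fshr* and *Cyp19a1*) and 4 genes of oocytes (*Gdf9*, *Bmp15*, *Zp2* and *Zp3*), of 55401 genes listed. The list was drawn up from the levels in female libraries and the background in male ones, so the difference between the sexes is described here and was not tested. The genotype comparison did not enter that choice and was tested.

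The mice were of the C57BL/6J strain and fed standard chow, and the sample titles name no treatment. The study's cohort went through a phenotyping pipeline that included food withdrawal, blood sampling and a glucose tolerance test. By the methods pWAT was taken at 16 weeks of age, although the outline of the phenotyping runs to 19 weeks. The females comprised 5 wild-type (WT) and 5 U9-KO mice and the males 3 WT and 4 U9-KO mice, with 1 library per mouse. U9-KO mice lack all exons of the long non-coding RNA gene *U90926* on both alleles in every cell, and WT mice were littermates from crosses of heterozygotes. The study asked whether the deletion alters adipose tissue.

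Each value is a normalized count, a read count divided by a size factor of its library and rounded by the authors. The sums over genes ranged from 20243688 to 28620744 per library. The steps between low values gave size factors of 0.757 to 1.230, and with these an estimated 19700000 to 27600000 reads in genes per library. The size factors seem to have been computed within each sex, so a small difference between females and males was given no weight. *U90926* had a normalized count of 1 in WT female 3 and WT male 2 and of 0 in the other 15 libraries, so the counts could not check the genotype labels. The adipocyte genes *Adipoq*, *Pparg* and *Fabp4* were present in every library, *Adipoq* (adiponectin) at 27618 to 72328 in females and 43506 to 64789 in males. Libraries WT female 4 and U9-KO female 1 stood apart from the other 8 females in the genes described here, and values that rest on them are given with and without them.

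Granulosa cells are the somatic cells that surround the oocyte in a follicle, and they convert androgens to oestrogens and secrete inhibins, activins and anti-Mullerian hormone. The oocyte in turn secretes growth factors of the TGF-beta family that act on its granulosa cells, and it builds the zona pellucida, a coat of glycoproteins. Neither cell type belongs to fat, but in females the perigonadal fat pad lies against the ovary, oviduct and uterus. In whole tissue, fewer cells of a type and less RNA per cell cannot be told apart.

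RefSeq promoter windows on GRCm38.p6 were found for 7 of the 10 genes, and not for *Amh*, *Gdf9* and *Zp2*. The stretch upstream of the start site is shown for a pair of oocyte genes whose levels followed the other genes from library to library, *Bmp15* (chrX:6320725-6320974, minus strand) and *Zp3* (chr5:135979855-135980098, plus strand), and for a pair of granulosa cell genes that did not follow them outside WT female 4 and U9-KO female 1, *Fshr* (chr17:89200676-89200925, minus strand) and *Cyp19a1* (chr9:54268165-54268414, minus strand, the most upstream of its 3 windows). Each runs 5′ to 3′ in the direction of the gene, and capitals mark CACGTG, an E-box, and AGGTCA, the half-site of nuclear receptors, on either strand.
Bmp15: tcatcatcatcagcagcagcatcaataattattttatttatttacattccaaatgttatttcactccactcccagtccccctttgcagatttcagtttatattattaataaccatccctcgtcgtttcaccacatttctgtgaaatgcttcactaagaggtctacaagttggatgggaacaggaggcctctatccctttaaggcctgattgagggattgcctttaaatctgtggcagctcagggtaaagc
Zp3: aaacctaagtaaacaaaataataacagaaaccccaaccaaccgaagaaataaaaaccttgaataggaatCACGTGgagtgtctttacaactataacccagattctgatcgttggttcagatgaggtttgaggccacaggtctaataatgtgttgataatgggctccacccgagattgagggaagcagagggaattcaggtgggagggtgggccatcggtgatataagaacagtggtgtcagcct
Fshr: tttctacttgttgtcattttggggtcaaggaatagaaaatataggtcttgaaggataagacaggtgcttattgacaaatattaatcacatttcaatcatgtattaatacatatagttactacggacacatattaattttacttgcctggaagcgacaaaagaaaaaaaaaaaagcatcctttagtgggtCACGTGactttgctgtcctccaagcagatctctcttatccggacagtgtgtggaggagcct
Cyp19a1: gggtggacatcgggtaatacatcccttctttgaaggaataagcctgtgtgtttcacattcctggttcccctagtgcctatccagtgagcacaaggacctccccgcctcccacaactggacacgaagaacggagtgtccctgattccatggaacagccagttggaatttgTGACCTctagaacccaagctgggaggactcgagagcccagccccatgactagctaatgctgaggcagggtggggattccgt
CACGTG lay in the windows of *Zp3* and *Fshr*, and in 6.02% of 32851 mouse windows of 250 bases. Its first base was 181 and 61 bases upstream of the start site at the end of the full 250-base window. The *Zp3* stretch is printed as 244 bases, without the end of its window that lies within the gene from 135980099, so the 181 does not count from its last printed base. AGGTCA lay in this window of *Cyp19a1*, on the opposite strand, and in the *Inha* window, and in 14% of all windows. The other windows of *Cyp19a1* held none, and the *Inha* window (75507359 to 75507608) lies within the annotated span of that gene. The wider E-box pattern CANNTG, which contains CACGTG, occurred in the windows of all 4 genes shown and in 66.2% of all windows. These are matches of letters only. *Zp3* and *Fshr*, which share CACGTG, differed in how they varied across the females.

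*Inha*, *Amh*, *Foxl2* and *Inhba* carried most of the granulosa cell signal, and their span among females, highest over lowest, ran from 9.81-fold for *Foxl2* to 454-fold for *Amh*. *Inha* encodes the alpha subunit of inhibins, which restrain pituitary follicle-stimulating hormone. It lies on chromosome 1 of GRCm38, from 75507077 to 75510366 on the plus strand. Its normalized counts were 227, 781, 468, 7239 and 1070 in WT females 1 to 5 and 4018, 334, 958, 329 and 961 in U9-KO females 1 to 5, against 27 to 49 (median 37) in the 7 males. WT female 4 and U9-KO female 1 were far above the rest, and even the lowest female was above every male. The female median of 869.5 was 23.5 times that of males.

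*Inhba* encodes the beta A subunit shared by inhibin A and activins (chromosome 13, 16011851 to 16031621, plus strand). Its counts were 521, 155, 327, 1904 and 278 in WT females and 761, 262, 765, 415 and 295 in U9-KO females. Males had 35, 39 and 35 in WT and 59, 48, 60 and 57 in U9-KO mice. Here WT female 4 was again highest, but U9-KO female 3 matched U9-KO female 1, and all females were above all males, 7.73-fold by the medians. The male level was above 0 in every library, so some *Inhba* transcript was present in male fat too.

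*Amh*, anti-Mullerian hormone, is made by granulosa cells of growing follicles and by Sertoli cells of the testis (chromosome 10, 80805243 to 80807648, plus strand). It had counts of 14, 149, 65, 1817 and 130 in WT females and 523, 11, 38, 4 and 204 in U9-KO females, against 0 to 7 (median 6) in males. U9-KO female 4 lay within the male range, and the other 9 females lay above it. The highest female was 454-fold above the lowest, the widest span among the 6 genes with a count above 3 in every female. WT female 4 and U9-KO female 1 held 79.2% of all *Amh* counts in females.

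*Foxl2*, the transcription factor that maintains granulosa cell identity, had the narrowest span of those 6 genes (chromosome 9, 98955288 to 98958543, plus strand). Its counts were 444, 576, 549, 1903 and 642 in WT females and 1503, 392, 194, 509 and 729 in U9-KO females, and 0 to 4 in males. All 10 females were far above the males, and the span among them was 9.81-fold. An antisense gene, *Foxl2os*, overlaps it on the opposite strand with 12 shared exon bases, and the ratio of *Foxl2* to *Foxl2os* was 0.887 to 1.19 across the females. The library kit kept strand, but the strand setting of the counting was not given in the sources used here.

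*Fshr* and *Cyp19a1* were low except in WT female 4. *Fshr*, the receptor for follicle-stimulating hormone (chromosome 17, 88984952 to 89200675, minus strand), had 7, 5, 2, 142 and 3 in WT females and 47, 2, 32, 13 and 7 in U9-KO females. It was at 0 in all 7 males, and against a floor of 3 counts per library the female median of 7 was at least 2.33-fold higher. *Cyp19a1*, the aromatase that makes oestrogens (chromosome 9, 54165937 to 54268110, minus strand), had 18, 0, 5, 205 and 2 in WT females and 45, 1, 22, 0 and 0 in U9-KO females, against 0 to 2 in males. Only 5 of 10 females exceeded the highest male for *Cyp19a1*, the fewest of the 10 genes. A value of 0 allows up to 3 counts, and these limits cover counting error only.

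Of the oocyte genes, *Gdf9* and *Bmp15* encode the growth factors with which the oocyte acts on granulosa cells. *Gdf9* (chromosome 11, 53431023 to 53437904, plus strand) had 40, 70, 43, 435 and 108 in WT females and 297, 84, 115, 21 and 78 in U9-KO females. Males had 11 to 29 (median 27), so *Gdf9* had the highest male background of the oocyte genes, and U9-KO female 4 lay within it. *Bmp15* (chromosome X, 6314107 to 6320721, minus strand) had 4, 7, 16, 193 and 47 in WT females and 114, 30, 69, 5 and 25 in U9-KO females. Males had 0 to 3 counts of *Bmp15*, below every female, though WT female 1 and U9-KO female 4 exceeded them only narrowly.

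The zona pellucida genes were likewise highest in WT female 4 and U9-KO female 1, but the order of the other females differed from that of *Gdf9* and *Bmp15*. *Zp2* (chromosome 7, 120126772 to 120145291, minus strand) had 0, 73, 26, 360 and 93 in WT females and 284, 30, 28, 0 and 18 in U9-KO females, against 0 to 2 in males. *Zp3*, which encodes another coat protein (chromosome 5, 135980099 to 135988624, plus strand), had 3, 25, 8, 209 and 54 in WT females and 146, 13, 13, 0 and 23 in U9-KO females, against 0 or 1 in males. WT female 1 and U9-KO female 4 were at 0 for *Zp2*, and U9-KO female 4 was also at 0 for *Zp3*. The ratio of *Zp2* to *Zp3* was between 0.783 and 3.25 in the 8 females with both above 3.

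**Figure D1:**
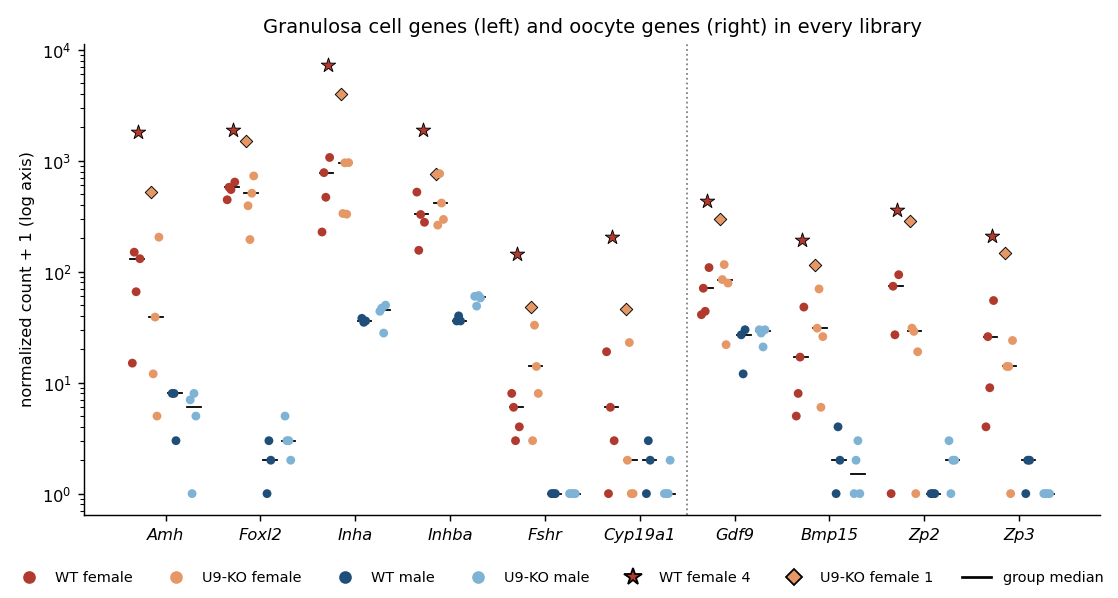
Normalized count plus 1 (log axis) of each gene in each library, with 6 granulosa cell genes left of the dotted line and 4 oocyte genes right of it. Points are libraries coloured by group, bars are group medians, the star is WT female 4 and the diamond U9-KO female 1. WT female 4 is the highest point for all 10 genes, up to 7239 for *Inha*.

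WT female 4 had the highest value among the 10 females for 10 of 10 genes, and U9-KO female 1 the second highest for 9 of 10, the exception being *Inhba*. Of the 24825 genes tested in females, 16.1% were highest in WT female 4, and the share second highest in U9-KO female 1 was not computed. Relative to the female median, WT female 4 was 3.38-fold higher for *Foxl2*, 8.33-fold for *Inha*, 18.6-fold for *Amh* and 12.4-fold for *Zp2*. U9-KO female 1 was 2.67-fold, 4.62-fold, 5.36-fold and 9.79-fold higher for the same genes. The excess was thus uneven across the genes in both libraries, and it was largest for *Cyp19a1*, at 58.6-fold and 12.9-fold over a female median of 3.5.

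Each female can also be placed by how many of the 10 genes exceeded the highest male library. The count was 9, 9, 10, 10 and 9 in WT females and 10, 9, 10, 5 and 9 in U9-KO females, so U9-KO female 4 was the only library below 9. Requiring 3 times the highest male and at least 10 counts lowered these to 4, 5, 6, 10 and 8, and to 10, 6, 10, 4 and 7. By this stricter count WT female 4, U9-KO female 1 and U9-KO female 3 held all 10 genes. All 10 females lay above all males for 5 of the 10 genes (*Foxl2*, *Inha*, *Inhba*, *Fshr* and *Bmp15*), beside 9.12% of 26289 genes tested, and nothing is read from this because the genes were chosen on it.

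Per kilobase of exon, the genes differed in level as well as in spread. The median normalized count per kilobase over females was 589 for *Inha*, 173 for *Foxl2*, 58.4 for *Amh*, 58.1 for *Inhba*, 39.9 for *Gdf9*, 13.6 for *Zp3*, 10.6 for *Zp2*, 8.99 for *Bmp15*, 2.97 for *Fshr* and 0.774 for *Cyp19a1*. *Inha* was above *Foxl2* per kilobase in 10 of 10 females, and *Gdf9* above *Zp3* in 10 of 10. *Amh* and *Inhba* did not separate, with *Amh* higher in 5 of 10, nor did *Zp3* and *Zp2* (5 of 10), *Inhba* and *Gdf9* (6 of 10) or *Zp2* and *Bmp15* (6 of 10).

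The granulosa cell and oocyte genes did not go together in every female. The 6 granulosa cell genes summed to between 1002 and 13210 in females (median 1838) and between 74 and 112 in males, so every female was above every male. The 4 oocyte genes summed to 47, 175, 93, 1197 and 302 in WT females and 841, 157, 225, 26 and 144 in U9-KO females, and to between 15 and 31 in males. U9-KO female 4 fell within the male range and WT female 1 was just above it, although their granulosa cell genes summed to 1270 and 1231. In these 2 females, as in every other female, the granulosa cell sum was made up mostly of *Foxl2*, *Inhba* and *Inha*.

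**Figure D2:**
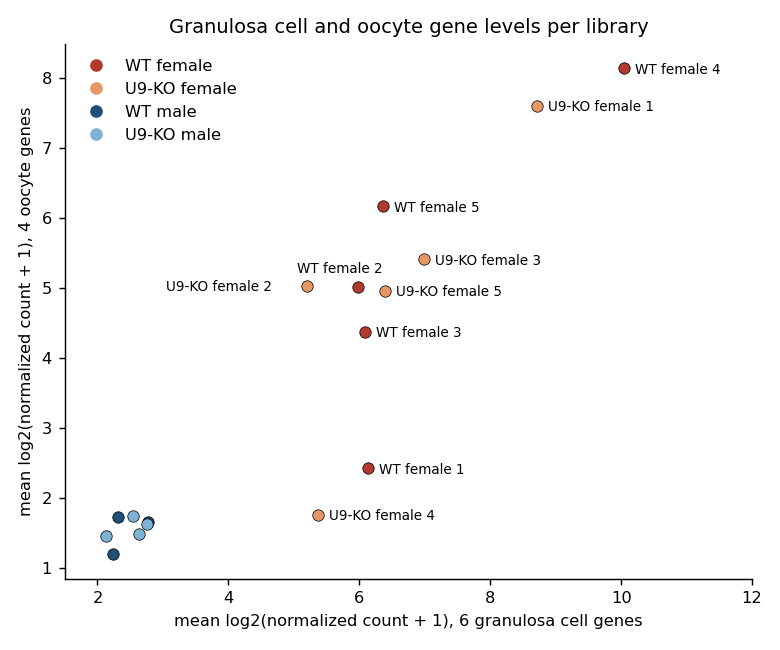
Mean log2(normalized count + 1) of the 6 granulosa cell genes (horizontal) and of the 4 oocyte genes (vertical), 1 point per library, coloured by group with females named. The females lie to the right of the males, WT female 4 and U9-KO female 1 at the top right (10.05 and 8.71 on the horizontal axis), while WT female 1 and U9-KO female 4 lie low on the oocyte axis (2.42 and 1.76).

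Over the 10 females, the mean log2 levels of both sets had Pearson's r of 0.79 and Spearman's rho of 0.67, given as a description over libraries that differ in depth. Without WT female 4 and U9-KO female 1 these were 0.45 and 0.36 over 8 libraries. Each gene was also set against the mean of the other 9. Without those 2 libraries r was 0.90 for *Gdf9*, 0.83 for *Inha*, 0.83 for *Zp3*, 0.74 for *Bmp15*, 0.69 for *Zp2* and 0.66 for *Amh*. It was -0.23 for *Foxl2*, -0.14 for *Inhba*, -0.12 for *Fshr* and -0.01 for *Cyp19a1*, which had values of 0.65 to 0.69 over all 10 females. Spearman's rho without those 2 libraries was 0.21, -0.17, -0.01 and 0.20 for the same genes, and the counts of *Fshr* and *Cyp19a1* there were low. For these 4 granulosa cell genes the relation to the others thus rested on WT female 4 and U9-KO female 1.

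The make-up of the granulosa cell signal differed between libraries, as ratios to *Inha* showed. *Foxl2* over *Inha* was 1.96, 0.738, 1.17, 0.263 and 0.6 in WT females and 0.374, 1.17, 0.203, 1.55 and 0.759 in U9-KO females. *Inhba* over *Inha* ran from 0.189 in U9-KO female 1 to 2.3 in WT female 1, and *Amh* over *Inha* from 0.0122 in U9-KO female 4 to 0.251 in WT female 4. WT female 1 and U9-KO female 4, the libraries lowest in oocyte genes, had the highest *Foxl2* and *Inhba* relative to *Inha*. U9-KO female 3 combined the lowest *Foxl2* over *Inha* with *Inhba*, *Fshr* and *Bmp15* levels among the 3 highest.

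**Figure D3:**
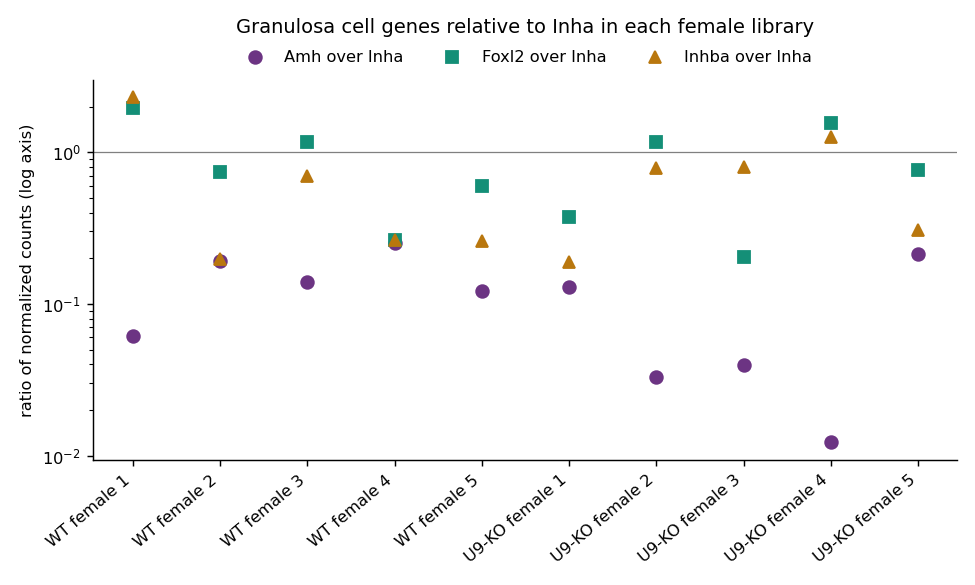
Ratio of the normalized count of *Amh*, *Foxl2* and *Inhba* to that of *Inha* (log axis) in each of the 10 female libraries, not corrected for gene length. The ratios are not constant: *Foxl2* over *Inha* runs from 0.203 to 1.96, and *Amh* over *Inha* from 0.0122 to 0.251.

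Longer lists of related genes gave the same picture for oocytes. Of 25 other oocyte genes, 21 were highest in WT female 4 (1 of them tied with U9-KO female 1), and 21 were higher in both WT female 4 and U9-KO female 1 than in any other female. The share of all genes higher in both was not computed. The deviations of both libraries from their group means correlated at 0.61 over genes averaging at least 10 counts, so the pattern was not limited to oocyte genes. The 3 most abundant were *Kit*, a receptor also present in male fat (284 to 670 in females, 228 to 468 in males), *Tle6* (87 to 717 against 36 to 62) and *Padi6* (1 to 564 against 0 to 3), of which *Tle6* and *Padi6* encode proteins of the oocyte's subcortical complex and lattices. In WT female 1 and U9-KO female 4, 9 and 10 of the 25 were at 0, against 0 to 4 in the other females and 9 to 15 in males. *Ooep* (28 and 40) was nonetheless present in both and at 0 in every male, though it was lowest in U9-KO female 3 (13). *Bcl2l10* went the other way, at 31 and 15 in these females against 41 to 119 in males. This was not particular to them, as WT female 2 (23), WT female 3 (22) and U9-KO female 5 (37) were also below every male. Both genes were picked out after their values were seen. The mean log2 level of the 4 oocyte genes followed that of the 25 over the females with an r of 0.98 and a rho of 0.89, and without the top pair with 0.97 and 0.79.

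For granulosa cells the relation was looser. The mean of the 6 genes followed that of 14 other granulosa cell genes with an r of 0.90 and a rho of 0.72, and without WT female 4 and U9-KO female 1 with 0.25 and 0.45. Of the 3 most abundant of the 14 by the mean over females, *Kitl* (the ligand of the oocyte receptor *Kit*) and *Serpine2* were also abundant in males. *Kitl* had 1871 to 2233 in females and 1822 to 2481 in males. *Serpine2* had 797 to 3912 in females and 1864 to 3055 in males, with a lower median in females (1247 against 2153). The remaining gene of the 3, *Lhcgr*, the receptor of luteinizing hormone, had 58 to 6583 in females, and 13 to 41 in males, and its mean rested on U9-KO female 1. By the median over females *Inhbb*, the beta B subunit of inhibins and activins, took the place of *Lhcgr*, with 581 to 2126 in females and 545 to 1395 in males. *Nr5a1*, a nuclear receptor that drives steroidogenic genes, ran from 98 to 2944 in females against 0 to 10 in males, and was chosen after its values were seen. *Fst*, also chosen in this way, had a lower median in females (381.5) than in males (503).

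Genes of other cell types were set beside the follicle genes, and their part in the levels was not tested. The sum of 12 luteal and thecal genes was highest in U9-KO female 1 (202911) and WT female 4 (143585), against 10762 to 45260 in the other females and 5957 to 8008 in males. *Cyp11a1*, which makes pregnenolone from cholesterol, led that list with 71595 and 54629, and was 20 to 135 in males. *Hsd3b1* had 45985 and 50452 in U9-KO female 1 and WT female 4, and *Scarb1*, a lipoprotein receptor also present in male fat, 14295 and 7381. U9-KO female 1 thus held more luteal and thecal signal than WT female 4 but less of all 10 follicle genes. Over the 10 females the mean log2 level of this list had an r of 0.81 and a rho of 0.62 with the granulosa cell genes, and 0.19 and 0.29 without those 2 libraries. With the oocyte genes it had 0.80 and 0.79, and 0.55 and 0.62 without them. The 8 oviduct genes did not rise with the granulosa cell genes (r -0.45, and -0.43 without them), with the highest sums in WT female 3 (9007) and U9-KO female 4 (3002) and 773 to 1380 in the other females, against 520 to 784 in males. The most abundant of them were *Ovgp1*, *Sox17* and *Foxj1*, and of these *Sox17* was as high in males (497 to 753) as in females (440 to 687). The sum of 6 mesothelium and ovarian surface genes was 6728 to 14587 in females and highest in U9-KO female 4 (r -0.59 with the granulosa cell genes, and -0.44 without those 2 libraries), led by *Upk3b*, *Wt1* and *Msln*. The 6 adipocyte genes summed to 143313 in U9-KO female 1 and 163382 in WT female 4, the lowest of all 17 libraries, against 225312 to 341405 in the other females.

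In males, 9 testis genes and 7 epididymis genes were listed as the counterpart. Of the testis list, *Sox9* (349 to 687) and *Aard* (16 to 41) were present and the other 7, among them the spermatid genes *Prm1*, *Prm2* and *Tnp1*, were at 0 to 4. The epididymis genes summed to 2 to 9 in males and 7 to 75 in females, the latter mostly *Crisp1*. The male background of the 10 genes stood beside these testis and epididymis markers at or near 0, apart from *Sox9* and *Aard*. These lists held no steroidogenic genes. Of the luteal and thecal list, males had *Insl3* at 33 to 60, *Star* at 76 to 158 and *Cyp11a1* at 20 to 135, but *Cyp17a1* at 1 to 6. Females had *Insl3* in a similar range, 28 to 90, with *Star* at 350 to 8440, *Cyp11a1* at 597 to 71595 and *Cyp17a1* at 2 to 1129. *Hsd3b1* was 73 in U9-KO male 1 and 46 in U9-KO male 4, and 0 to 6 in the other males. Whether testis RNA adds to the male background was not tested.

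**Figure D4:**
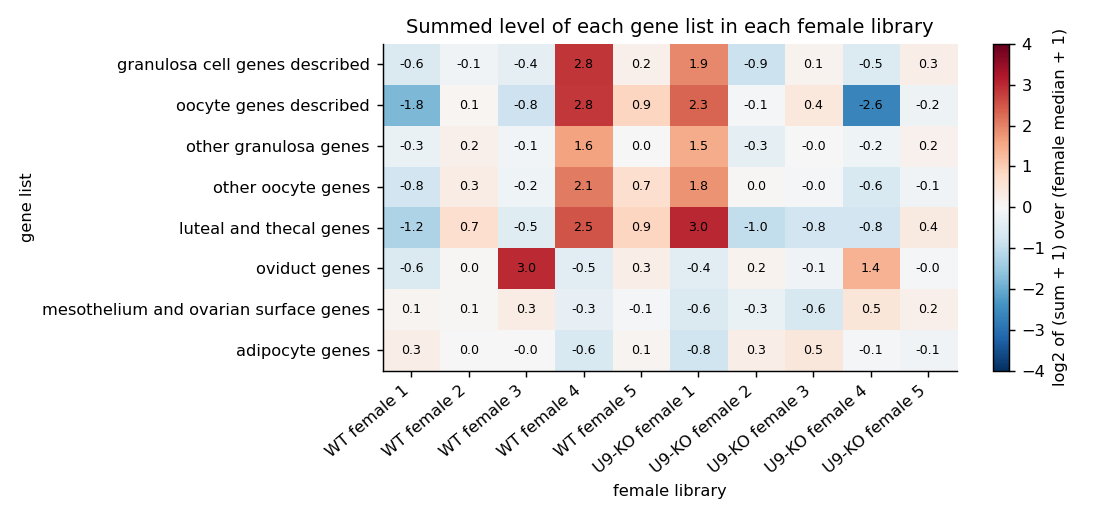
Summed normalized count of each gene list in each female library, as log2 of (sum + 1) over (female median + 1), with red above and blue below the median. WT female 4 and U9-KO female 1 are highest for granulosa cell, oocyte, luteal and thecal lists (2.84 and 1.91 for the 6 granulosa cell genes), while WT female 3 (2.97) and U9-KO female 4 (1.39) are highest for oviduct genes.

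The genes most like each set were ranked among 19696 genes by Pearson's r over the 10 females. For the oocyte genes these were *Khdc1b*, *Oas1d*, *Nlrp14*, *Elobl*, *Zar1*, *Gm37110*, *Nlrp9b*, *Gm44183*, *Oog4* and *Eif4e1b*, with r from 0.991 to 0.980, and 0.962 to 0.992 without WT female 4 and U9-KO female 1. Of these, *Khdc1b* ran from 0 to 240 in females and was at most 1 in males. For the granulosa cell genes they were *Pebp1*, *Golga7*, *Chst8*, *Hmox1*, *Exoc1*, *Gm43694*, *Chst11*, *H2afx*, *Trib2* and *Mex3c*, with r from 0.971 to 0.958. Without WT female 4 and U9-KO female 1 their r fell to between 0.602 and 0.780, so this ranking rested largely on those libraries. Several of the second group were abundant in males too, such as *Pebp1*, at 3422 to 6081 in females and up to 3627 in males.

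Genotype was compared with limma on log2(normalized count + 1), where fold changes understate those of low genes, and p-values were adjusted by Benjamini-Hochberg over all genes tested. In females none of the 10 genes had an adjusted p under 0.05 (adjusted p = 1 for each), and 0 of 24825 genes did, a background of 0%. The study itself, using DESeq2 with the same cutoff, reported differentially expressed genes in females and in males, and none with the sexes combined. The background of 0% therefore belongs to limma on these normalized counts and does not show that no gene differed. At an unadjusted p under 0.05 there were 0 of the 10 and 2.23% of all genes. WT and U9-KO females overlapped for each of the 10, beside 0.238% of all genes without overlap. *Amh* was 435 ± 774 (SD, n = 5) in WT and 156 ± 221 in U9-KO females, a log2 fold change of -1.43 with a standard error of 1.40 and a 95% interval of -4.50 to 1.65. *Inha* was 1957 ± 2970 and 1320 ± 1541, a log2 fold change of -0.13 (SE 0.89, interval -2.08 to 1.82). *Gdf9* was 139.2 ± 168 and 119 ± 105, a log2 fold change of -0.05 (SE 0.73, interval -1.65 to 1.55).

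On the log2 scale the difference between the genotypes was smaller than the spread within them for each of the 10 genes, and all intervals spanned 0. The narrowest was that of *Foxl2*, whose log2 fold change was -0.40 (interval -1.53 to 0.72). Of the 10 log2 fold changes in females, those of *Inhba* (0.08), *Fshr* (0.54) and *Bmp15* (0.52) were above 0, and the median was -0.27 over the granulosa cell genes and -0.41 over the oocyte genes, beside 0.00 over all genes tested. With each female left out in turn, *Inha* ran from -0.70 without U9-KO female 1 to 0.61 without WT female 4, and *Gdf9* from -0.49 to 0.52 for the same libraries. *Amh* stayed below 0, between -2.29 without U9-KO female 1 and -0.47 without WT female 4.

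**Figure D5:**
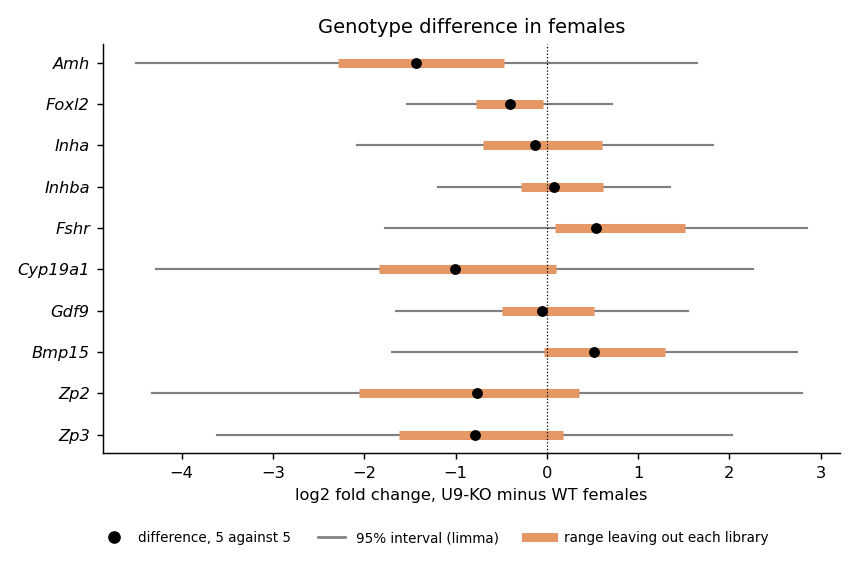
Log2 fold change of U9-KO against WT females for each gene (black points, 5 mice each), with limma's 95% interval (grey) and the range over fits that each leave out 1 library (orange). Every grey interval spans 0, such as -4.50 to 1.65 for *Amh*.

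In males 5 of the 10 genes (*Amh*, *Foxl2*, *Inha*, *Inhba* and *Gdf9*) reached the total of 10 needed for a test, and none passed (0% of 21930 genes passed). *Inhba* was higher in each of the 4 U9-KO males than in each of the 3 WT males, 56 ± 5.48 (SD, n = 4) against 36.33 ± 2.31 (n = 3), a log2 fold change of 0.61 (SE 0.20, interval 0.17 to 1.04). Its unadjusted p in limma was 0.0114 and its adjusted p 0.612, so it did not pass. In males 7.60% of all genes had groups that did not overlap, and likewise 7.60% had an unadjusted p below that threshold. A fit of all 17 mice with sex as a covariate called 0 of the 10 genes and 0% of 26289, with 0 of the 10 and 4.02% of all genes at an unadjusted p under 0.05. The test of a genotype effect that differs between the sexes also called 0 of the 10 and 0% of all genes, with 0 of the 10 and 3.46% at an unadjusted p under 0.05. The *Inhba* effect did not differ detectably between the sexes (male minus female 0.52, interval -1.05 to 2.10, adjusted p = 1 in limma).

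The receptors, binding proteins and Smads through which inhibins, activins, *Amh*, *Gdf9* and *Bmp15* act were read as a list of 21 genes. None passed the genotype test in either direction in females or males, and the median log2 fold changes were -0.06 and 0.00, beside 0.00 over all genes in each. *Smad6*, an inhibitory Smad, was the only gene of the list at an unadjusted p under 0.05, in males, with a log2 fold change of -0.41 (limma, adjusted p = 0.629). The most abundant were *Tgfbr3*, the co-receptor for inhibin (3897 to 6928 in females, 4920 to 6419 in males), *Acvr1c* (1964 to 5595 against 4800 to 6563) and *Bmpr1a* (2373 to 3213 against 2131 to 3118). The sum of the list was 30176 in WT female 4 and 27297 in U9-KO female 1, within the 24773 to 30197 of the other females, and 24484 to 29601 in males. Of the 21 genes, 7 were nonetheless higher in both of these libraries than in any other female, namely *Amhr2*, *Bmpr1b*, *Bmpr2*, *Tgfbr1*, *Fst*, *Smad3* and *Smad9*, and they were picked out after their values were seen. The share of all genes with this pattern was not computed, so nothing is read from the count. *Amhr2*, the receptor of *Amh*, was at 1033 in WT female 4 and 485 in U9-KO female 1, against 87 to 382 in the other females and 88 to 158 in males. *Bmpr1b*, a receptor of the BMP branch, had 603 and 453 there, against 65 to 257 in the other females and 27 to 50 in males.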

How the data were processed

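The members and gene lists were chosen with earlier results of these data known. Per the deposited files each gene has a score, which the authors obtained from reads trimmed with trim_galore, aligned with STAR 2.7.3a to GRCm38 (versions from the submitters' processing notes), counted per gene with summarizeOverlaps in Union mode, divided by a size factor per library and rounded. DESeq2 1.28.1 was the authors' tool; it needs raw counts and was not used here. The series-wide table was left out because it holds nothing beyond the per-library files. In 2 males the file header and the label number the replicate differently, and the label was followed. Of 55401 identifiers, 55141 were named, and positions are from GENCODE M21.

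Size factors were estimated from the gaps and doubled values among low counts. Genotype was tested with limma 3.58.1 in R 4.3.3 (lmFit, then eBayes with its trend option) on log2 of the normalized count plus a pseudocount of 1. Genes totalling at least 10 in the mice fitted were tested, with a Benjamini-Hochberg adjusted p under 0.05 as threshold. Both scripts were tested on simulated data. Summaries used Python 3.11.15, pandas 2.3.3, numpy 2.4.6 and scipy 1.17.1. Named genes were the 10 members, *U90926*, *Adipoq*, *Pparg* and *Fabp4*, up to 3 of the most abundant genes of each list, and for each set the 10 genes with the highest Pearson's r among genes totalling at least 50 in females. Any further gene was picked with its values in view. The alternatives were a pseudocount of 0.5, other filters, TMM scaling (own implementation), quantile scaling, no trend, robust fitting, a replicate block, a joint fit of all 17 mice, and leaving out each library. Replicates are separate mice.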

Additional observations from a re-analysis of the deposited data

Results flagged for a closer look

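In groups of 4 or 5 libraries, a library was singled out where its gap to the nearest other library, divided by the range of the group, exceeded Dixon's 95% critical value. Of 28 groups examined over the 10 genes, 14 held such a library. Chance flags about 1 in 20 groups, but the genes were chosen with these same female values in view, so the count is a description and no test. WT female 4 stood apart among WT females for all 10 genes, with *Amh* at 1817 (14 to 149 in the other 4), *Foxl2* at 1903, *Inha* at 7239, *Inhba* at 1904, *Fshr* at 142, *Cyp19a1* at 205, *Gdf9* at 435, *Bmp15* at 193, *Zp2* at 360 and *Zp3* at 209. U9-KO female 1 stood apart among U9-KO females for *Inha* at 4018, *Zp2* at 284 and *Zp3* at 146. In U9-KO males, *Cyp19a1* was 1 in U9-KO male 4 and 0 in the other 3, which is at the limit of detection. The genes vary together across libraries, so these are not independent of each other.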

How the results depend on the processing

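None of the 10 genes passed the genotype test in any comparison or setting. The count of all genes called, 0 in each comparison, became 1 without the mean-variance trend in females, in males and in both sexes together, 1 in both sexes with a pseudocount of 0.5 or no filter, and 1 for the difference between the sexes with no filter. Leaving out each library gave 0 in females, 0 to 71 in males (71 without WT male 1), 0 in both sexes and 0 for the difference. Without WT female 4 and U9-KO female 1, the log2 fold changes of *Inha* and *Gdf9* in females reversed to 0.05 and 0.07. Over the fits that left out 1 library, signs also turned for *Inhba* (-0.28 to 0.62), *Inha* (-0.70 to 0.61), *Cyp19a1* (-1.84 to 0.10), *Gdf9* (-0.49 to 0.52), *Bmp15* (-0.03 to 1.29), *Zp2* (-2.06 to 0.35) and *Zp3* (-1.62 to 0.18) in females, and for *Amh* (-0.97 to 0.18) and *Gdf9* (-0.08 to 0.58) in males. The cause was not tested.

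The number of females with at least 9 of the 10 genes above the highest male was 9 and fell to 3 when 3 times that level and at least 10 counts were required. Without WT female 4 and U9-KO female 1, Spearman's rho moved from 0.89 to 0.79 for oocyte genes against other oocyte genes, from 0.72 to 0.45 for granulosa cell genes against other granulosa cell genes and from 0.67 to 0.36 between both sets. Leaving out each female gave 0.85 to 0.97, 0.62 to 0.82 and 0.55 to 0.82, settings chosen after seeing the data. No pairing by replicate number was detected, as same-numbered deviations correlated at -0.44 to 0.11 in females and -0.12 to -0.01 in males. These correlations cannot show whether same-numbered mice shared a litter or a batch. A fit with the replicate block called 0 genes in each comparison, as the main fit did, with 456 at an unadjusted p under 0.05 in females. Low counts limit *Fshr*, *Cyp19a1* and the zona pellucida genes in most libraries.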

Other observations

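The luteal and thecal list also differed in composition between the libraries richest in follicle genes. *Hsd17b7*, which converts oestrone to oestradiol, had 16511 in U9-KO female 1 and 746 in WT female 4 and was chosen after its values were seen. *Ovgp1*, the oviduct glycoprotein, reached 7684 in WT female 3 and 1256 in U9-KO female 4, against 22 to 212 in the other females and 12 to 26 in males, and so was highest in females other than WT female 4 and U9-KO female 1.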
